A study of Mus musculus with 10 samples.

Results

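The 10 genes described here encode laminin chains (Lama2, Lama3, Lama4, Lama5, Lamb1, Lamb2 and Lamc1), the nidogens (Nid1 and Nid2) and perlecan (Hspg2). They were chosen by name as core components of the basement membrane, with earlier results of these data known. They were found by matching the Ensembl identifiers of the files to mouse symbols. They are 10 of the 55385 genes listed in each file, and all 10 passed the filter on low counts that left 15043 genes for testing. RNA-seq was done on endothelial cells of mouse liver, in 5 libraries labelled Alk1-HEC-KO (genotype KO) and 5 libraries labelled Control (genotype WT). By the labels the knocked-out gene is Acvrl1. Its product, ALK1, is a receptor of the TGF-beta family through which endothelium senses circulating BMPs. The cells were taken from the non-parenchymal fraction of a density gradient and captured on magnetic beads against CD146. The sources used here do not give the driver of the deletion, the deleted exons, the strain, age and sex of the mice, or whether each library came from its own animal. The p-values therefore measure the spread between these libraries, which may be technical.

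The basement membrane is a thin sheet of matrix under endothelium and epithelium. Laminins are its main adhesive proteins: each is a trimer of an alpha, a beta and a gamma chain, and the trimers polymerise into a network held at the cell surface by integrins and dystroglycan. Nidogens bind the laminin gamma1 chain and type IV collagen and link both networks, and perlecan, a heparan sulfate proteoglycan, binds both and stores growth factors. Sinusoidal endothelium of the liver is known for lacking a continuous basement membrane, unlike the endothelium of capillaries in most other organs.

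Depth was nearly equal, at 23489494 to 23602771 estimated counts per library. Values are given in CPM (counts relative to the TMM-scaled library size) for a gene across libraries, and in the deposited TPM, which is corrected for transcript length, where different genes are compared. Acvrl1, the targeted gene, was higher in the libraries labelled Alk1-HEC-KO, at 239 to 258 CPM against 114 to 136 CPM in controls (edgeR adjusted p = 1.7e-07). Counts summed over a gene cannot tell its exons apart. The text therefore speaks of knockout-labelled libraries, and higher or lower means higher or lower in them than in controls. All 8 endothelial markers that were checked passed the filter, and their summed level was 11150 to 13195 CPM in controls and 11179 to 12021 CPM in the knockout-labelled libraries. Single endothelial markers differed both ways: 3 were called higher (Pecam1, Tie1 and Emcn, with log2 fold changes of 0.24, 0.31 and 0.90) and 3 lower (Kdr, Tek and Stab2, with -0.33, -0.34 and -0.35). The groups did not overlap for 7 of the 8. Mitochondrially encoded transcripts made up 4.91% ± 0.874 of the counts in controls and 3.89% ± 0.378 in the knockout-labelled libraries (SD, n = 5 each). In bulk RNA, fewer cells of a type and less RNA per cell cannot be told apart.

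A group of 5 genes was more abundant in the knockout-labelled libraries. These 5 were Lama2, Lama4, Lama5, Lamc1 and Nid2, and none was called lower. Lama3, Lamb1, Lamb2, Nid1 and Hspg2 did not pass an edgeR adjusted p of 0.05. Of all genes tested 19.7% were called in either direction: 10.6% higher and 9.08% lower, 1593 and 1366 genes. With library size alone in place of TMM the split was 1968 and 1024. The median log2 fold change of the 10 genes was 0.37, beside 7.8e-05 over all genes. The groups did not overlap in CPM for 4 of the 10 genes, Lama4, Lama5, Lamc1 and Nid2, and did not overlap for 15.4% of all genes tested. Markers of some other liver cells moved beside these genes. Of 10 hepatocyte markers 3 were called lower (Cyp2e1, Cyp3a11 and Apoa2, with log2 fold changes of -3.30, -3.10 and -2.14) and none higher, with a median log2 fold change of -1.18. The summed hepatocyte level was 496 to 1880 CPM in controls and 461 to 1084 CPM in the knockout-labelled libraries, and no marker was at 0 in all libraries. Of 7 bile duct markers 5 were called higher and none lower, with a median log2 fold change of 1.09. Of 8 mural cell markers 1 (Rgs5) was called higher and none lower. Of 10 stellate cell and fibroblast markers 3 (Col1a1, Col1a2 and Col3a1) were called higher and none lower, with a median log2 fold change of 0.34. None of 7 macrophage markers and none of 5 mesothelial markers was called. The part of these cells in the results for the 10 genes was not tested.

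**Figure D1:**
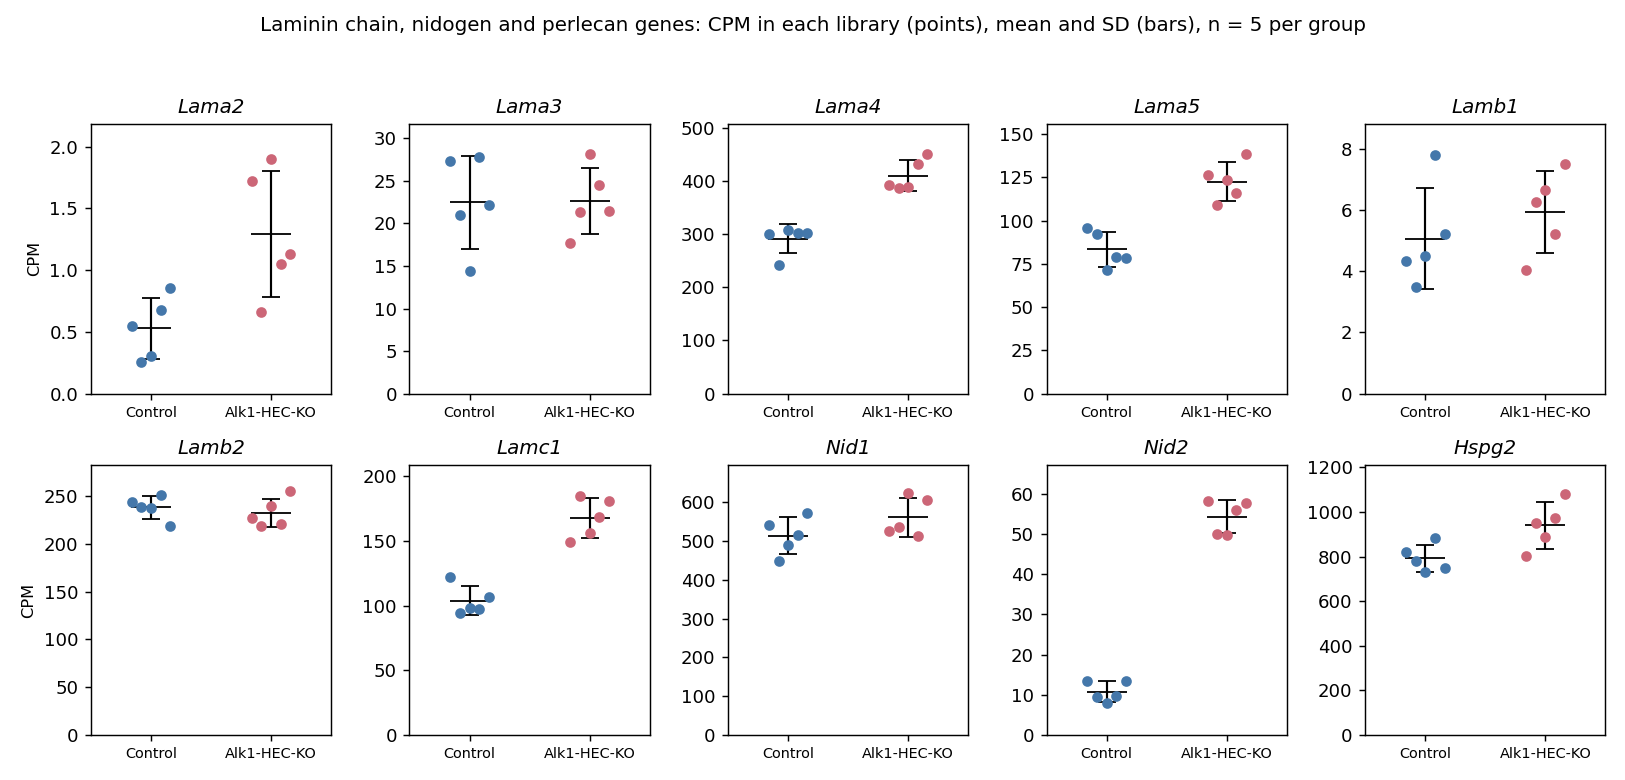
CPM (linear axis from 0) of the 10 genes in each library, with 5 points per group and bars for the mean and SD. Lama4, Lama5, Lamc1 and Nid2 are higher in every knockout-labelled library than in every control, and Lamb2 lies in the same range in both groups.

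**Figure D2:**
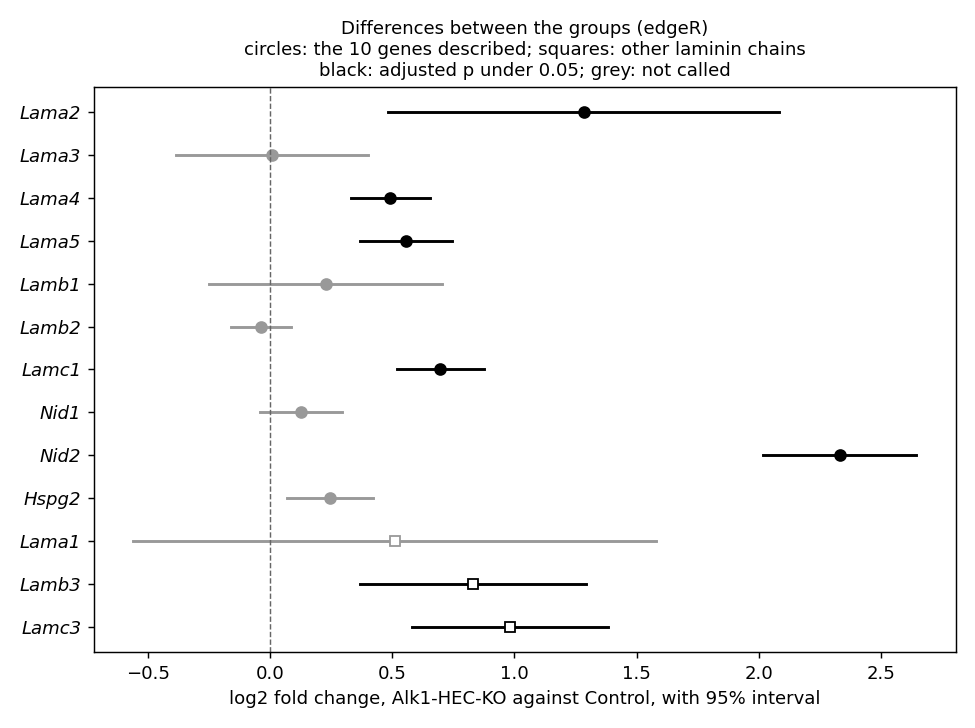
Log2 fold change of each gene, knockout-labelled against control libraries, with its 95% interval from the edgeR fit, for the 10 genes (circles) and 3 further laminin chains (squares). Nid2 stands at 2.33, Lama4, Lama5 and Lamc1 lie between 0.49 and 0.70, and the intervals of Lama3, Lamb1, Lamb2 and Nid1 include 0.

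Promoter sequences of 6 of the 10 genes were used. Those of Lama4, Lamc1 and Nid2 were not available, and none was used for Lama3. Of the 6, 3 are shown, as these genes of 1 basement membrane differed in response (Lama5 rose, Hspg2 near the threshold, Lamb2 not called). Each runs from 250 bases before to 50 bases after the RefSeq start (GRCm38.p6), 5′ to 3′ on the strand of the gene, and capitals mark the 6 bases GGCGCC, the GC-rich element at which SMAD1 and SMAD5 are known to bind in BMP target genes. The regions are chr2:180225810-180226109 (minus strand) for Lama5, chr4:137468553-137468852 (plus strand) for Hspg2 and chr9:108479612-108479911 (plus strand) for Lamb2.
Lama5: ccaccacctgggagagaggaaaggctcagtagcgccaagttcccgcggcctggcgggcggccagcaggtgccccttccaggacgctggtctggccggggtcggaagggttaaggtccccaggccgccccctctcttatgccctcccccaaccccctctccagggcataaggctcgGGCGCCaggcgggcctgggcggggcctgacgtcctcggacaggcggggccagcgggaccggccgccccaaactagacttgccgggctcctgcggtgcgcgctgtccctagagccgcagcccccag
Hspg2: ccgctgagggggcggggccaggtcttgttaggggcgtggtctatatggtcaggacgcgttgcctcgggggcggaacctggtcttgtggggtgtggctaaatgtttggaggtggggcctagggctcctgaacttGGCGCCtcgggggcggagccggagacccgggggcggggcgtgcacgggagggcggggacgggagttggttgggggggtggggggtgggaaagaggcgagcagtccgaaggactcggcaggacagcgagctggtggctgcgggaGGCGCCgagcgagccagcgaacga
Lamb2: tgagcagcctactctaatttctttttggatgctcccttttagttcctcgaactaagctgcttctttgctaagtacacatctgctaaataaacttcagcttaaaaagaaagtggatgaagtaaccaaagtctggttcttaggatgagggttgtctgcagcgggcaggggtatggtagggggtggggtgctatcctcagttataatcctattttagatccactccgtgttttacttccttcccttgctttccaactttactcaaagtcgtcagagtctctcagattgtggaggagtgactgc
GGCGCC, which reads the same on both strands, stood in 1 place in Lama5, 2 in Hspg2, 1 in Lamb1 and none in Lamb2, Nid1 and Lama2, and 11.9% of 32851 promoters of the same length hold it. The GC box GGGCGG, searched on both strands, stood in 4 places in Lama5, 5 in Hspg2, 2 in Lamb1, 1 each in Lama2 and Nid1 and none in Lamb2, and 35.7% of all promoters hold it. The SMAD-binding sequence CAGAC, on both strands, stood in 1 place each in Lama5, Lamb1 and Lama2, 2 in Lamb2 and none in Hspg2 and Nid1, and 49.6% of all promoters hold it. In the 3 printed promoters no match of 1 motif overlapped a match of another. Of the genes that did not pass the test, Hspg2 and Lamb1 hold GGCGCC, and Lamb2 and Nid1 do not. Of the called genes, Lama5 holds it, and Lama2, which was called in the main fit and in 13 of 21 alternatives, does not. GC content was 72.7% in Lama5, 70.3% in Hspg2, 64.7% in Nid1, 63.7% in Lamb1, 50.3% in Lama2 and 44% in Lamb2, beside a median of 52.7% over all promoters. Of the genes that did not pass the test, Hspg2, Nid1 and Lamb1 were above that median and Lamb2 was below it. Of the called genes, Lama5 was above it and Lama2 below it. A link between these sequences and the results was not tested. These matches describe letters in the reference and not binding.

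Among the alpha chains, which set what cells a laminin can bind, the 2 that endothelium is known to make rose together. Lama4 encodes the alpha4 chain, the alpha chain typical of vascular basement membrane. It lies on the plus strand of chromosome 10 (38965515 to 39110188 in GRCm38, as for the other coordinates). Lama4 was at 300, 242, 308, 302 and 302 CPM in controls 1 to 5 and at 392, 387, 387, 432 and 450 CPM in knockout-labelled libraries 1 to 5. Control 2 was the lowest, and every knockout-labelled library was above every control. The means of Lama4 were 291 ± 27.6 and 410 ± 29.5 CPM (SD, n = 5 each), a rise of 0.49 ± 0.07 on the log2 scale (SE, edgeR adjusted p = 5.2e-04).

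Lama5 encodes the alpha5 chain, which strengthens the junctions of mature endothelium. It lies on the minus strand of chromosome 2 (180176373 to 180225859). Lama5 was at 95.7, 92.0, 71.5, 79.1 and 78.1 CPM in controls 1 to 5 and at 126, 109, 123, 116 and 138 CPM in knockout-labelled libraries 1 to 5. The groups did not overlap, and the nearest libraries were control 1 and knockout-labelled library 2. The means of Lama5 were 83.3 ± 10.2 and 123 ± 11.1 CPM (SD, n = 5 each), a rise of 0.56 ± 0.09 on the log2 scale (SE, edgeR adjusted p = 6.5e-04).

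Lama3 and Lama2, alpha chains best known from other tissues, were far less abundant. Lama3 encodes the alpha3 chain of epithelial anchoring laminin and lies on the plus strand of chromosome 18 (12333819 to 12583013). Lama3 was at 27.3, 20.9, 14.4, 27.8 and 22.2 CPM in controls 1 to 5 and at 17.8, 21.4, 28.1, 24.5 and 21.5 CPM in knockout-labelled libraries 1 to 5. The groups overlapped, and the log2 fold change of Lama3 was 0.01 with a 95% interval from -0.38 to 0.40 (edgeR adjusted p = 0.98). The sign of that small difference turned in 6 of 22 alternatives, none of them called. Lama2 encodes the alpha2 chain of muscle and nerve laminin and lies on the minus strand of chromosome 10 (26980036 to 27619758).

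Lama2 was close to the detection limit, at 13, 6, 7, 15 and 20 counts in controls 1 to 5 and 41, 16, 45, 25 and 27 counts in knockout-labelled libraries 1 to 5. Knockout-labelled library 2 lay within the range of the controls. The means of Lama2 were 0.528 ± 0.25 and 1.29 ± 0.511 CPM (SD, n = 5 each), a rise of 1.28 ± 0.37 on the log2 scale (SE, edgeR adjusted p = 0.028). The call ended without control 1, 2 or 3 (adjusted p = 0.0502, 0.062 and 0.060), without knockout-labelled library 1 or 3 (0.065 and 0.073), with transcript length offsets (0.155), and with limma on log2(TPM + 1) or log2(TPM + 0.1), where it was 0.14 and 0.13 and the log2 fold change of Lama2 was 0.27 and 0.83. Beside it, the summed level of the 10 stellate cell and fibroblast markers was 155 to 244 CPM in controls and 243 to 344 CPM in the knockout-labelled libraries. These ranges overlapped. Of these 10 markers 3 were called higher, none lower, and none was at 0 in all libraries. The 3 were Col1a1, Col1a2 and Col3a1, with log2 fold changes of 1.61, 1.45 and 1.23. The 7 not called had log2 fold changes of -0.13 (Lrat), 0.02 (Reln), 0.14 (Lum), 0.18 (Dcn), 0.28 (Des), 0.41 (Hgf) and 0.45 (Pdgfra). The part of such cells in the result for Lama2 was not tested.

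How far Lama4 rose depended on the unit. In the deposited TPM Lama4 was at 88.9, 93.0, 115, 89.7 and 89.9 in controls 1 to 5 and at 117, 114, 113, 132 and 147 in knockout-labelled libraries 1 to 5. In TPM control 2 was no longer the lowest, and control 3 lay above knockout-labelled libraries 2 and 3, so the groups overlapped. The ratio of counts to TPM gives the mean effective length of the transcripts to which the reads of a gene were assigned, calibrated here on 539 genes with a single annotated transcript. For Lama4 that length was 5958, 4340, 4192, 5050 and 5756 bases in controls 1 to 5, and 5541 to 6054 bases in the knockout-labelled libraries. The longest of the 7 annotated Lama4 transcripts has 38 exons and 6046 bases. With these lengths as offsets in the edgeR fit the log2 fold change of Lama4 was 0.28 (adjusted p = 0.093), which ended the call. With limma on log2(TPM + 1) it was 0.38 (adjusted p = 0.013). The median log2 fold change over all genes was 0.081 in that limma fit, beside -5.9e-04 with length offsets, so the 2 values are not on the same footing.

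**Figure D3:**
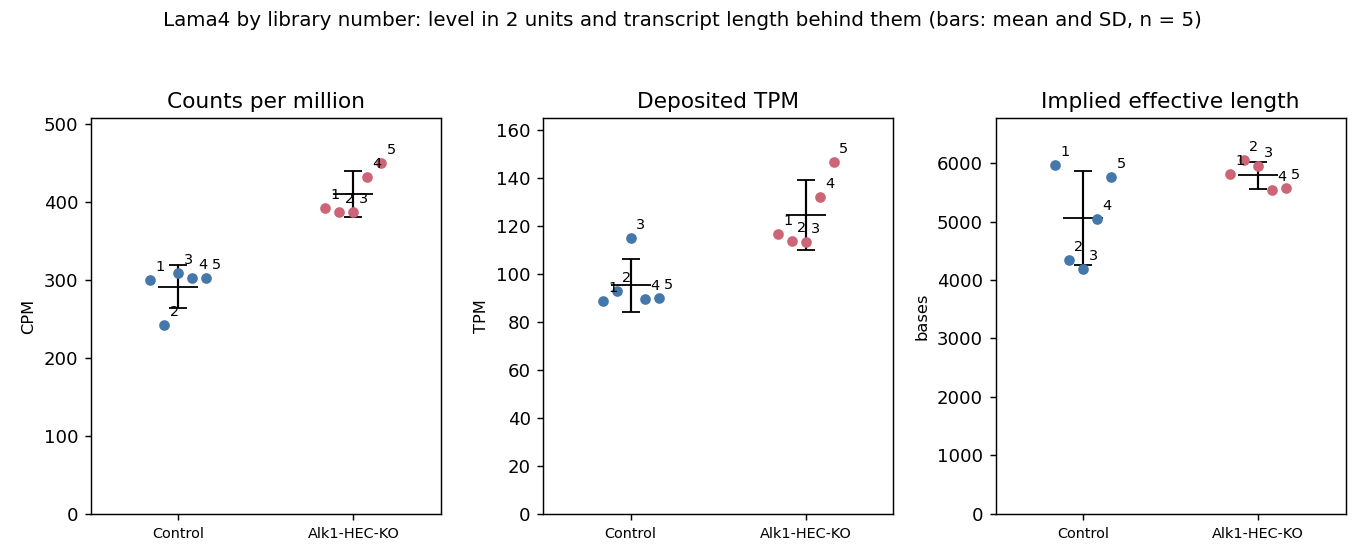
Lama4 in each library (number beside the point) as CPM, as deposited TPM and as the implied effective transcript length in bases, all on linear axes from 0, with mean and SD, n = 5 per group. Controls 2 and 3 have the shortest implied lengths, 4340 and 4192 bases, and control 3 moves into the range of the knockout-labelled libraries in TPM.

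Lama5, Lamc1 and Nid2 did not depend on the unit in this way. Their groups did not overlap in TPM either, at 20.7 to 25.4 against 30.0 to 36.8 for Lama5, 30.3 to 39.7 against 49.9 to 74.6 for Lamc1, and 2.95 to 4.804 against 21.6 to 25.4 for Nid2. With length offsets their log2 fold changes were 0.41, 0.62 and 2.54, each called by edgeR.

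Neither beta chain passed the test. Lamb2 encodes the beta2 chain, a beta chain of mature vascular laminins, and lies on the plus strand of chromosome 9 (108479736 to 108490530). Lamb2 was at 245, 239, 238, 251.7 and 219 CPM in controls 1 to 5 and at 227, 219, 240, 221 and 255 CPM in knockout-labelled libraries 1 to 5. The groups covered the same range, with a log2 fold change of -0.04 and a 95% interval from -0.16 to 0.09 (edgeR adjusted p = 0.71). That interval leaves out rises of the size seen for Lama4, Lama5 and Lamc1. The sign of the Lamb2 difference turned with library size alone (0.01), length offsets (0.04) and limma on log2(TPM + 1) or log2(TPM + 0.1) (0.14 with each), none of them called.

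Lamb1 encodes the beta1 chain, the other common partner in vascular laminins, and lies on the plus strand of chromosome 12 (31265234 to 31329644). Lamb1 was at 4.33, 3.48, 4.49, 7.78 and 5.21 CPM in controls 1 to 5 and at 4.03, 6.25, 6.64, 5.21 and 7.49 CPM in knockout-labelled libraries 1 to 5. The groups overlapped, and the log2 fold change of Lamb1 was 0.23 with a 95% interval from -0.25 to 0.70 (edgeR adjusted p = 0.52).

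Lamc1 encodes the gamma1 chain, which most laminins share and which carries the site that nidogens bind. It lies on the minus strand of chromosome 1 (153218922 to 153332786). Lamc1 was at 122, 94.01, 98.0, 97.6 and 107 CPM in controls 1 to 5 and at 149, 185, 156, 169 and 181 CPM in knockout-labelled libraries 1 to 5. The lowest knockout-labelled library was above control 1, the highest control. The means of Lamc1 were 104 ± 11.2 and 168 ± 15.5 CPM (SD, n = 5 each), a rise of 0.70 ± 0.08 on the log2 scale (SE, edgeR adjusted p = 7.2e-05), and it was called in 22 of 22 alternatives.

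In the make-up of the chains, measured in TPM, 1 gene dominated each class in both groups. Lama4 made up 76.7% ± 2.90 of the summed alpha chain TPM in controls and 75.9% ± 1.66 in the knockout-labelled libraries (SD, n = 5 each). Lama5 made up 18.7% ± 1.90 and 20.2% ± 1.05, Lama3 4.40% ± 1.27 and 3.51% ± 0.707, and Lama1 and Lama2 at most 0.205% and 0.534% in any library. Of the beta chains Lamb2 made up 97.6% ± 0.864 and 97.0% ± 0.624, and Lamc1 95.3% ± 0.810 and 93.98% ± 2.09 of the sum of Lamc1 and Lamc3. The ranges of these shares overlapped between the groups for each of the laminin chains given. These shares rest on the transcript lengths: from counts per kilobase of the longest annotated transcript, Lama4 made up 83.3% and 83.8% and Lama5 12.8% and 13.3%.

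The sums of the classes moved unequally. The summed alpha chain TPM was 117 to 141 in controls and 150 to 189 in the knockout-labelled libraries, and the sum of Lamc1 and Lamc3 was 31.9 to 41.3 and 54.3 to 78.6. Neither of these overlapped between the groups. The beta chain sum was 76.6 to 97.6 in controls and 88.5 to 109 in the knockout-labelled libraries, and these overlapped. No test was made on shares or sums. TPM was not scaled by TMM, and with limma on log2(TPM + 1) the median log2 fold change over all genes was 0.081.

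**Figure D4:**
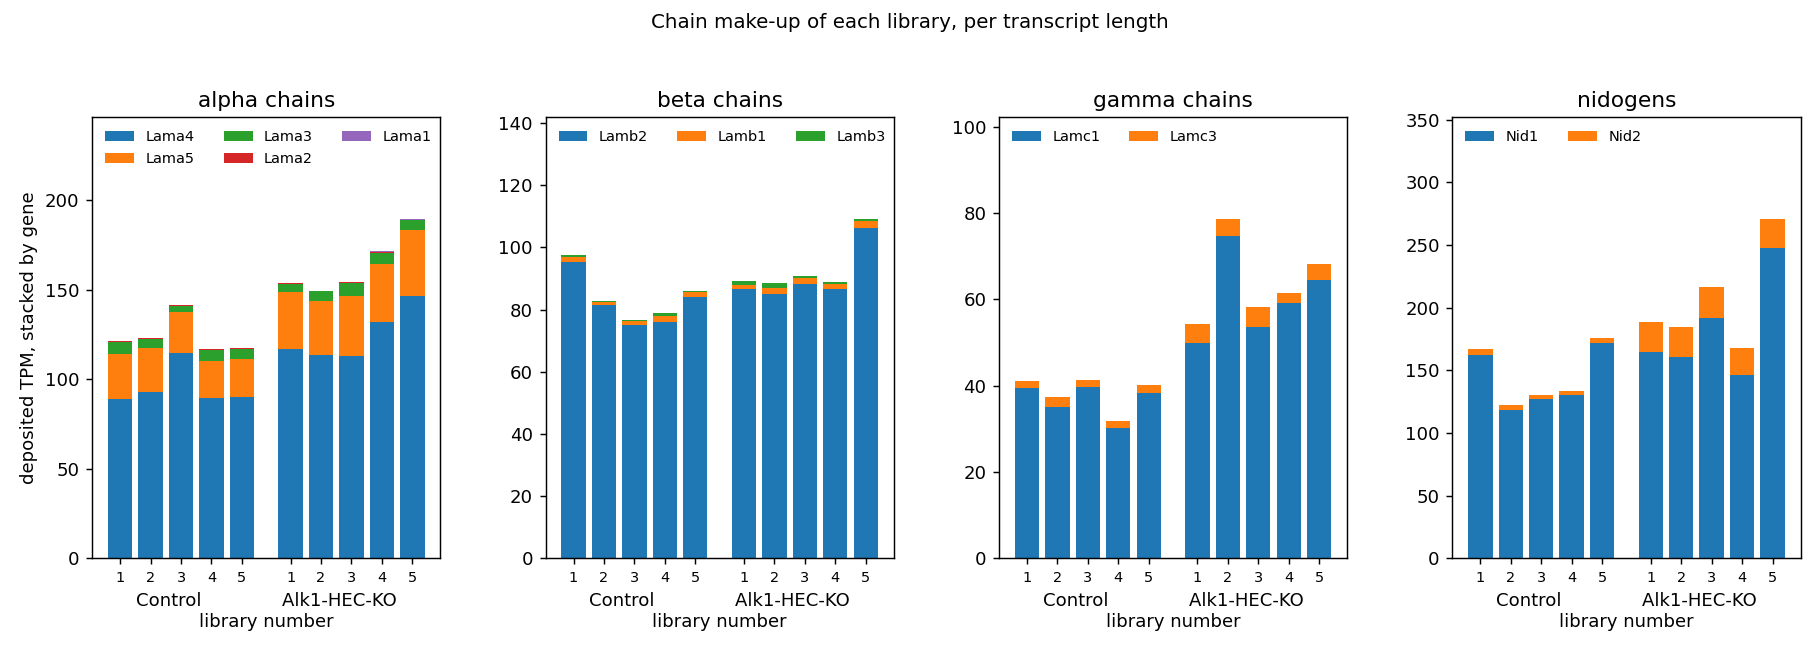
Deposited TPM of the alpha, beta and gamma laminin chains and of the nidogens, stacked by gene, in each of the 5 control and 5 knockout-labelled libraries (linear axes from 0). Lama4, Lamb2, Lamc1 and Nid1 form most of each bar, and Nid2 goes from 2.21 to 3.01% of the nidogen bar in controls to 8.60 to 13.3% in the knockout-labelled libraries.

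The nidogens differed most from each other. Nid2 encodes nidogen-2, and lies on the plus strand of chromosome 14 (19751265 to 19811787). Nid2 was at 13.5, 9.31, 7.89, 9.76 and 13.5 CPM in controls 1 to 5 and at 58.2, 49.96, 49.7, 56.1 and 57.7 CPM in knockout-labelled libraries 1 to 5. Every knockout-labelled library was far above every control. The means of Nid2 were 10.8 ± 2.56 and 54.3 ± 4.18 CPM (SD over n = 5 each), which is a 5.03-fold rise (log2 fold change 2.33 ± 0.14 SE, edgeR adjusted p = 7.2e-07), the largest fold change of the 10 genes. Nid2 was called in 22 of 22 alternatives, with log2 fold changes from 2.24 to 2.63. Its annotated span overlaps Rtraf on the other strand, and the sources used here do not say whether the counting used strand. Rtraf was at 87.3 to 99.3 CPM in controls and 96.4 to 109 CPM in the knockout-labelled libraries, with a log2 fold change of 0.16 (edgeR adjusted p = 0.070).

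Nid1 encodes nidogen-1, and lies on the plus strand of chromosome 13 (13437551 to 13512269). Nid1 was at 542, 449, 491, 515 and 573 CPM in controls 1 to 5 and at 526, 537, 624, 514 and 606 CPM in knockout-labelled libraries 1 to 5. The groups overlapped, and the log2 fold change of Nid1 was 0.13 with a 95% interval from -0.04 to 0.30, which did not reach that of Nid2, from 2.02 to 2.64 (edgeR adjusted p of Nid1 = 0.29). Nid1 remained the more abundant nidogen in TPM: Nid2 made up 2.62% ± 0.35 of the nidogen TPM in controls and 11.8% ± 1.9 in the knockout-labelled libraries (SD, n = 5 each), without overlap.

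Perlecan lay at the edge of the threshold. Hspg2 lies on the plus strand of chromosome 4 (137468769 to 137570630), and its longest annotated transcript has 97 exons. Hspg2 was at 819, 778, 730, 884 and 750 CPM in controls 1 to 5 and at 804, 951, 886, 974 and 1082 CPM in knockout-labelled libraries 1 to 5. Knockout-labelled library 1 lay within the controls, and the other 4 were above all of them. The means of Hspg2 were 792 ± 61.2 and 939 ± 103 CPM (SD, n = 5 each), with a log2 fold change of 0.25 and a 95% interval from 0.07 to 0.42 (edgeR adjusted p = 0.051). Hspg2 was called in 5 of 22 alternatives: DESeq2 (adjusted p = 0.021), library size alone (0.019), no filter (0.039), and without control 4 (0.035) or knockout-labelled library 1 (0.019).

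The order of the levels per transcript length was set out in TPM. In controls it ran from Hspg2 (304 ± 17.3 TPM) over Nid1 (142 ± 23.3), Lama4 (95.3 ± 11.1), Lamb2 (82.4 ± 8.17), Lamc1 (36.6 ± 3.94), Lama5 (23.1 ± 2.03), Lama3 (5.37 ± 1.3), Nid2 (3.84 ± 0.902) and Lamb1 (1.47 ± 0.399) to Lama2 (0.211 ± 0.104; SD, n = 5 each). Of the neighbours in this order, Lama4 and Lamb2, and Lama3 and Nid2, overlapped between libraries, and the others did not. In the knockout-labelled libraries Nid2 (23.8 ± 1.44 TPM) stood above Lama3 (5.69 ± 0.958), without overlap. The order rests on the length used, at the top and lower down. The implied effective length of Hspg2 was 3840 to 4850 bases in controls, although its longest transcript in GENCODE M21 has 14187 bases. In CPM per kilobase of the longest transcript Nid1 (84.3 ± 7.79) stood above Hspg2 (55.8 ± 4.32) in controls. Nid2 (2.21 ± 0.525) and Lama3 (2.13 ± 0.518) were close in controls by that measure. In the knockout-labelled libraries it put Nid2 (11.1 ± 0.857) close to Lama5 (10.8 ± 0.972), and Lama4 (67.7 ± 4.88) close to Hspg2 (66.2 ± 7.29).

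Of 3 further laminin chain genes outside the 10, all low, 2 were called higher and none lower, with a median log2 fold change of 0.83. Lamc3, the gamma3 chain, rose from 6.57 ± 0.744 to 13 ± 3.56 CPM (n = 5 each, with SD; adjusted p by edgeR = 0.0025). The other was Lamb3, the beta3 chain that pairs with the alpha3 chain in epithelial laminin, with means of 0.665 ± 0.11 and 1.19 ± 0.233 CPM (adjusted p by edgeR = 0.016). Its call ended with no filter (0.051), with length offsets (0.32), with limma on log2(TPM + 1) or log2(TPM + 0.1) (0.29 and 0.27) and without controls 4 and 5 (0.055). Lama1, the alpha1 chain of early embryos, was at 0.491 ± 0.387 and 0.697 ± 0.356 CPM (edgeR adjusted p = 0.53). Beside these, the summed level of the 7 bile duct epithelial markers was 185 to 269 CPM in controls and 368 to 623 CPM in the knockout-labelled libraries, without overlap. Most of these sums came from Spp1, with means of 197 and 429 CPM. Of the 7 markers 5 were called higher, among them Spp1 and also Epcam, at 6.48 and 14.3 CPM, and none was at 0 in all libraries. The part of such cells in the results for Lama3, Lamb3 and Lamc3 was not tested.

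Collagens form the second network of the basement membrane. Of 8 network collagen genes, 4 were called higher and none lower, with a median log2 fold change of 0.66. Col4a1 and Col4a2, the chains of the common type IV collagen trimer, rose from 1407 ± 51.5 to 2515 ± 131 CPM and from 740 ± 43.4 to 1201 ± 53.8 CPM (n = 5 each, with SD; adjusted p by edgeR = 6.1e-07 and 3.6e-06). Col15a1, a proteoglycan collagen of capillary basement membrane, went from 2.998 ± 2.99 to 153 ± 31.9 CPM (edgeR adjusted p = 7.6e-05), with a log2 fold change of 5.67, or 6.52 without control 5, 6.42 without controls 4 and 5 and 4.92 with limma on log2(TPM + 1). Col4a3, a chain of the kidney type, rose by 0.55 ± 0.17 on the log2 scale (SE, edgeR adjusted p = 0.037). Its call ended in 11 of 22 alternatives, among them leaving out control 2 or 5 or any of knockout-labelled libraries 2 to 5, where the adjusted p lay between 0.065 and 0.086.

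Of 15 other basement membrane genes, 6 were called higher, 1 lower and 8 did not pass, with a median log2 fold change of 0.23. The 1 called lower was Tinagl1, at 2056 CPM in controls and 1629 CPM in the knockout-labelled libraries (edgeR adjusted p = 0.0027). Agrn, the heparan sulfate proteoglycan agrin that binds laminin, rose from 139 ± 7.57 to 208 ± 16.9 CPM (n = 5 each, with SD; adjusted p by edgeR = 3.2e-05). Postn (periostin) and Egflam (pikachurin, a ligand of dystroglycan) rose by 1.36 ± 0.20 and 1.31 ± 0.17 on the log2 scale from low levels of 4.50 and 1.79 CPM (edgeR adjusted p = 4.8e-04 and 1.8e-04). With limma on log2(TPM + 1) the log2 fold change of Egflam was 0.69, and it was still called. Fbln5, the elastic fibre protein fibulin-5, rose by 0.58 ± 0.12 (SE, edgeR adjusted p = 0.0049).

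Among laminin receptors 6 of 11 were called higher, 1 lower and 4 did not pass, with a median log2 fold change of 0.41. The 1 called lower was Itga1, at 476 CPM in controls and 362 CPM in the knockout-labelled libraries (edgeR adjusted p = 0.0045). Itga6, the integrin alpha6 subunit that binds laminins, rose from 73.2 ± 20 to 394 ± 22.4 CPM (SD over n = 5 each), which is a 5.38-fold rise (edgeR adjusted p = 3.7e-06). Of the beta subunits in the list, Itgb1 (integrin beta1) was at 912 and 996 CPM (edgeR adjusted p = 0.086). Itgb4 (integrin beta4) was low, at 6.26 and 8.78 CPM, but was called higher without overlap (edgeR adjusted p = 0.0097). Dag1, which encodes dystroglycan, was at 245 and 259 CPM (edgeR adjusted p = 0.53). Bcam, a receptor of the alpha5 chain, rose from 177 ± 11.1 to 379 ± 21.8 CPM (edgeR adjusted p = 1.2e-07). Mcam, a receptor for laminins with the alpha4 chain and the target of the capture beads, rose from 330 ± 44.4 to 541 ± 35.8 CPM (edgeR adjusted p = 1.1e-04). Itga2, a collagen and laminin receptor subunit, rose by 0.98 ± 0.20 on the log2 scale from 1.32 CPM (SE, edgeR adjusted p = 0.0035), and with limma on log2(TPM + 1) its log2 fold change was 0.26 and it was not called (adjusted p = 0.053).

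Enzymes around the matrix moved both ways. Of 11 genes that glycosylate dystroglycan for laminin binding 1 was called lower, none higher, and 10 did not pass, with a median log2 fold change of -0.02. The 1 was Rxylt1, which fell by 0.18 on the log2 scale (edgeR adjusted p = 0.026), a call that ended in 10 of 22 alternatives, among them those without control 2, 4 or 5 (adjusted p = 0.051, 0.055 and 0.052). Of 16 proteases, inhibitors and heparanase, 15 passed the filter, 6 were called higher, 2 lower and 7 did not pass, with a median log2 fold change of 0.32. Adamts5, a protease of proteoglycans, rose from 4.33 ± 1.22 to 22.3 ± 2.99 CPM and Bmp1, which processes laminin chains and perlecan, from 3.62 ± 0.454 to 14.3 ± 1.27 CPM (n = 5 each, with SD; adjusted p by edgeR = 2.8e-06 and 1.4e-07). Adamts1 rose by 0.80 ± 0.13 on the log2 scale (SE, edgeR adjusted p = 0.0014). Hpse, the heparanase that cuts the heparan sulfate of perlecan and agrin, fell from 145 ± 13.9 to 72 ± 10.1 CPM (edgeR adjusted p = 1.4e-05). With limma on log2(TPM + 1) the log2 fold change of Adamts5 was 1.45, against 2.36.

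**Figure D5:**
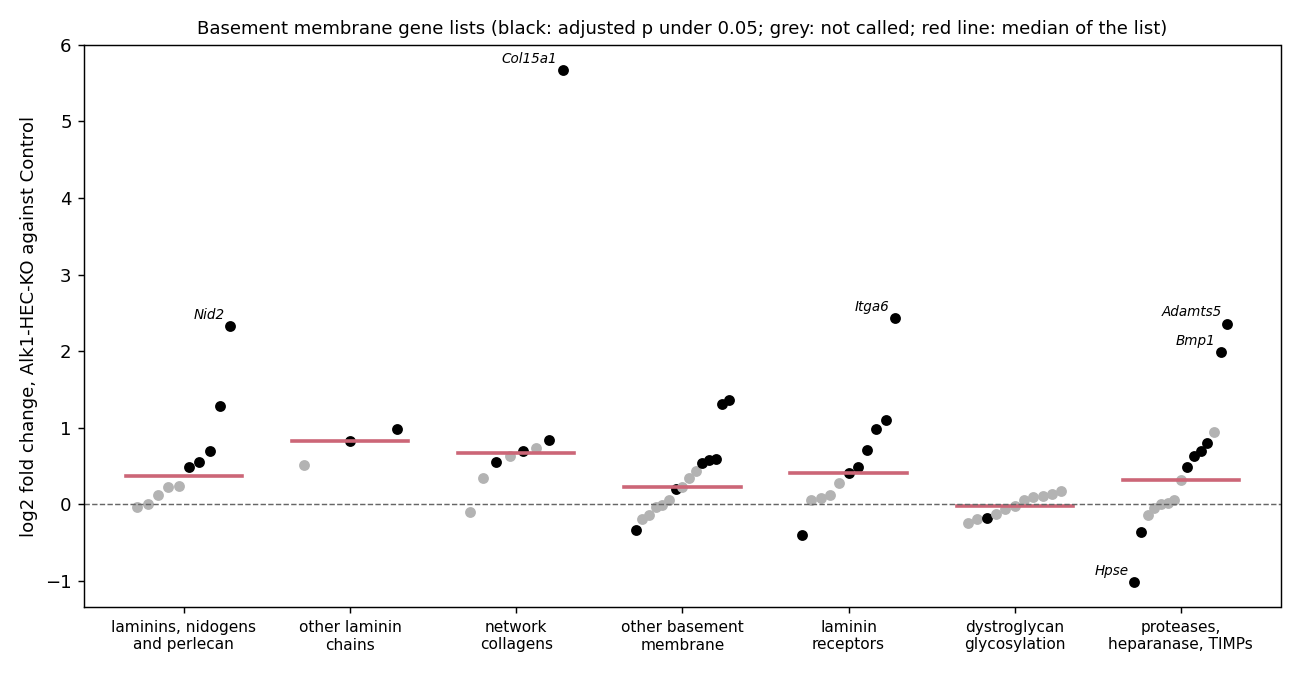
Log2 fold change, knockout-labelled against control libraries, of every tested gene in the lists of basement membrane components, receptors and enzymes (points; black where the edgeR adjusted p is under 0.05) with the median of each list (red line). Nid2, Itga6, Adamts5 and Bmp1 lie near 2, Col15a1 at 5.67, and the dystroglycan glycosylation genes around 0.

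The genes whose profile over the 10 libraries was nearest to that of the most abundant laminin gene, Lama4, were Tuba1a, Mfng and Notch4, with root mean square differences of 0.065, 0.067 and 0.074 in log2 CPM after centring. Nearest to Nid1 were Cntln, Pigq and Nedd4 (0.053, 0.058 and 0.060), and nearest to Hspg2 were Hira, Iqsec1 and Tepsin (0.077, 0.078 and 0.083). All profiles share the same 10 libraries and their group difference.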

How the data were processed

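Gene expression was measured in 10 RNA-seq libraries, 5 per group, grouped and numbered by their titles. The submitters' processing notes name Trim Galore 0.6.4, kallisto 0.4.6 and the build GRCm38.p6. The authors deposited estimated counts per gene (expected counts, not whole) and TPM per gene. How transcripts were summed to genes is not given in the sources used here. Of 55385 identifiers 55144 matched GENCODE M21 (GRCm38), the source of coordinates, by stable identifier. Lama2 and Hspg2 carry another version there, so their transcript lengths may differ from those the authors used. Kallisto shares ambiguous reads among transcripts, which bears on TPM.

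Counts were rounded, filtered by filterByExpr (minimum count 10), scaled by TMM and put through the quasi-likelihood test of edgeR 4.0.16 (R 4.3.3; robust, group alone), with Benjamini-Hochberg adjustment over all 15043 genes and a threshold of 0.05. Each SE is the log2 fold change divided by the root of F, and intervals are at 95%. The 5 against 5 design was tested on simulated counts in which 200 genes at 1 CPM or more in controls were changed. Of changes of 1.5-fold 67.2% were recovered, of 2-fold 91.0% and of 4-fold 95.5%, and 1.74% of the calls were false. A gene not called may thus still differ by a small fold. Within each group, every pair of libraries differed by more than sampling noise. The members, lists and tests were chosen with earlier results of these data known. Besides the 10 genes and Acvrl1, the text names up to 4 called genes per list with a mean of at least 1 CPM, by size of change. It also names the 3 genes nearest in profile to the most abundant laminin, nidogen and perlecan genes. Itgb1, Itgb4, Itga1, Dag1, Tinagl1, Ctsl, Lamb3, Lama1, Epcam, Rtraf and single cell type markers were named after their values were seen. Alternatives were DESeq2 1.42.0, limma 3.58.1 (voom, and log2 TPM with pseudocounts of 1 and 0.1), other scalings and filters, length offsets, a replicate block and libraries left out. Shares from the longest transcript were added after the data were examined. A gene of the lists is not reported here and enters no sum, share or count of a list.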

Additional observations from a re-analysis of the deposited data

Results flagged for a closer look

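Of 36 groups of 5 values examined, 3 held a library far from the others of its group, and chance gives about 1 in 20. Lama4 was at 242 CPM in control 2, against 300 to 308 CPM in the other controls, and in TPM the same library was not the lowest. The share of mitochondrially encoded transcripts was 6.43% in control 4, the highest of the controls. The summed level of 5 mesothelial markers was 67.7 CPM in knockout-labelled library 5, against 25.5 to 36.4 CPM in the other 4, and the same library had the highest CPM of Lama4, Lama5, Lamb1, Lamb2 and Hspg2 in its group. The part of these differences in the results was not tested.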

How the results depend on the processing

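The number of the 10 genes called higher was 5, lay between 4 and 6 in 21 of 22 alternatives and was 3 with transcript length offsets, where the calls of Lama2 and Lama4 ended. None was called lower in any. Lama5, Lamc1 and Nid2 were called in 22 of 22 alternatives and Lama4 in 21, and Lama2 could not be tested under the stricter filter. Of all genes 1366 were called lower, and 866 without controls 4 and 5. With limma on log2(TPM + 1) and log2(TPM + 0.1) 664 and 668 were called lower, and 1819 and 1810 higher. The median log2 fold change over all genes was 0.081 and 0.098 in these limma fits, against 7.8e-05 in the main fit. The cause of these differences was not tested. Both groups carry replicate numbers 1 to 5. The labels do not say that a number marks a shared animal, litter or day, so the main fit had no block. Same-numbered libraries correlated in their deviations from the group mean at -0.20, 0.35, 0.01, 0.11 and 0.28, which does not settle whether they are pairs. With the replicate block 1432 genes were called higher and 1135 lower, and 5 of the 10 genes remained called. Among the other genes named, the calls of Col4a3 (adjusted p = 0.055) and Rxylt1 (0.063) ended with that block. From counts per kilobase of all annotated exons the shares were 71.7% and 72.3% for Lama4, 21.9% and 22.9% for Lama5, 98.0% for Lamb2 in the knockout-labelled libraries and 92.0% and 90.4% for Lamc1. From the longest transcript they were 83.3% and 83.8% for Lama4, 12.8% and 13.3% for Lama5 and 92.3% and 90.8% for Lamc1, since the lengths differ by construction. Counting error limits Lama2, Lama1 and Lamb3, which had few counts per library.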

Other observations

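Nid2, the gene with the largest fold change among the 10, was also compared with all other genes by profile, after its values were seen. The nearest over the 10 libraries were Itga6, which encodes a laminin-binding integrin subunit (root mean square difference 0.14 in log2 CPM after centring), Nxpe4 (0.197) and Fam198b (0.229), with log2 fold changes of 2.43 ± 0.16, 2.17 ± 0.09 and 2.10 ± 0.11 (SE). These profiles share the group difference, so with a difference this large the measure mostly picks genes of like fold change. The implied effective transcript length of Nid2 was 4105 to 4961 bases in controls and 3412 to 4505 bases in the knockout-labelled libraries, and that of Lamc1 3861 to 5460 and 4412 to 5194 bases. Control 3 had the shortest implied length of the controls for Lama4, Lama5, Lamc1, Nid2 and Hspg2.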
